A study of Rattus norvegicus with 2 samples.

Results

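The hemoglobin-rich (Hb-rich) barcodes of the rat jejunal epithelium were chosen by their hemoglobin UMIs: they were those with more than 1000 unique molecular identifiers (UMIs, tags that count each captured transcript once), at least 20% of them from Hba-a1, Hba-a2, Hba-a3, Hbb and LOC103694857. They numbered 1079 of the 18081 barcodes over 1000 UMIs. Rat 1 held 433 of 10803 (4.01%, exact 95% interval 3.65 to 4.40), and rat 2 held 646 of 7278 (8.88%, 8.23 to 9.55). Both animals were male Sprague Dawley rats, an outbred strain, aged 6 to 8 weeks and weighing 180 to 200 g. They were fasted overnight, and no treatment or genotype separated them. Epithelium of the proximal jejunum was shaken off in EDTA, dispersed with dispase II and loaded as 1 droplet library per rat, so there was 1 condition with 2 animals. The protocol names no lysis of red cells. Hemoglobin levels chose the barcodes and are given as a description, while the tests below rest on the other genes, with hemoglobin left out of every total.

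Red cells arise in the bone marrow from erythroblasts, which switch on globin and heme genes, expel the nucleus and leave as reticulocytes. A reticulocyte makes no new RNA and loses its remaining RNA, ribosomes and mitochondria as it matures in the blood, which reaches the jejunum through the capillaries of the villi. Alas2 starts heme synthesis in this lineage, Gata1 and Klf1 are 2 of its transcription factors, and ubiquitin and autophagy genes take part in clearing its organelles.

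Within the Hb-rich barcodes the median hemoglobin share was 86.9% in rat 1 and 88.5% in rat 2, and 333 and 494 barcodes reached 80%. The threshold fell in a sparse stretch, since 7 and 11 barcodes lay between 20% and 25%, and 14 and 25 lay just below it, between 15% and 20%. The libraries held 99986348 and 66469907 UMIs in all. Median depth of Hb-rich barcodes was 3221 and 5401.5 UMIs, of which a median of 386 and 577 lay outside hemoglobin, over 242 and 208 genes. The sums outside hemoglobin held 285856 and 625882 UMIs, so that 1 UMI stood for 3.50 UMIs per 1000000 (CPM) in rat 1 and 1.60 CPM in rat 2. A barcode sequence occurred in both libraries 28 times, and 1 of these was Hb-rich in rat 1 and 2 were Hb-rich in rat 2, with 0 Hb-rich in both. The filter stated in the methods, more than 200 and fewer than 5800 genes, over 5000 UMIs and at most 40% mitochondrial transcripts, would keep 36 of the 433 and 276 of the 646. By its methods, the paper also took out whole clusters with Ptprc or Hba-a1 expression, so these counts cover only the filter on single barcodes.

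**Figure D1:**
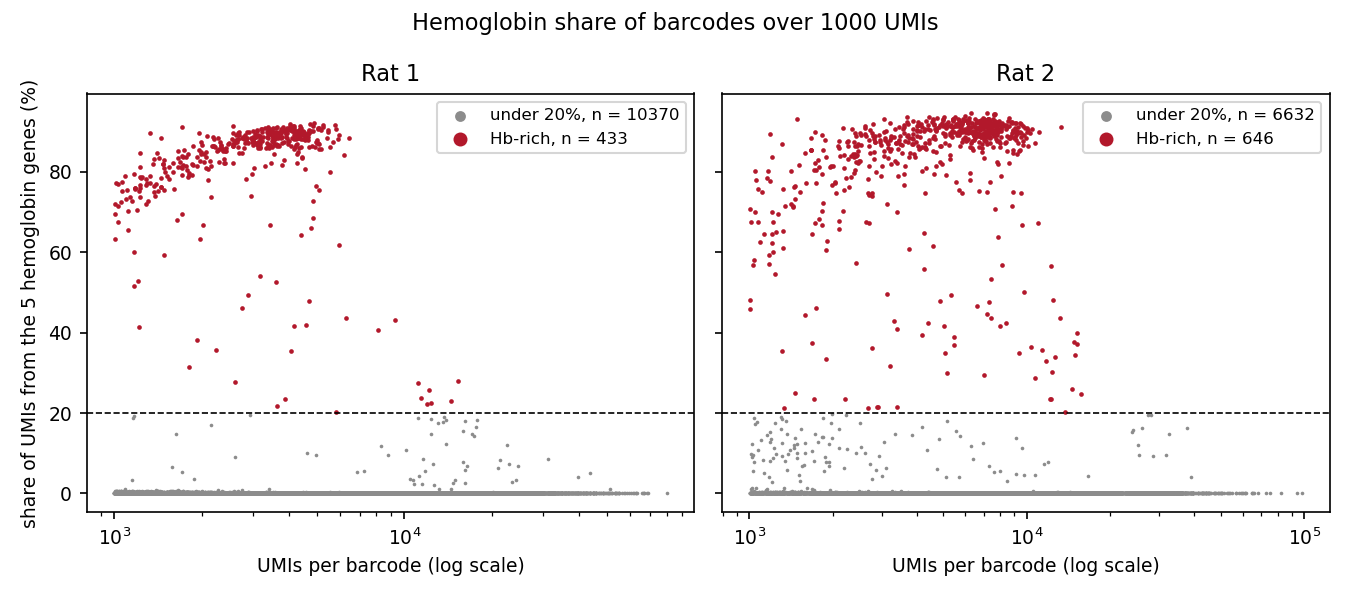
Share of UMIs from the 5 hemoglobin genes (vertical axis, %) against UMIs per barcode (horizontal axis, log scale) for every barcode over 1000 UMIs, 1 panel per rat. Red points are the 433 and 646 Hb-rich barcodes, grey points the rest, and the dashed line is the 20% threshold; most red points sit above 80%, and few points of either colour lie near the line.

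The label was checked against the 4 markers given for it. Hba-a1, Hba-a2 and Hbb belong to the rule, so Alas2, the erythroid 5-aminolevulinate synthase, was the independent one. With every barcode thinned to 100 UMIs outside hemoglobin, which left out no barcode, an Alas2 UMI was found in 64.2% of Hb-rich barcodes of rat 1 and 69.5% of rat 2 (91.9% and 89.9% before thinning). In barcodes rich in epithelial genes, which should lack Alas2 and had median depths of 10830 and 11488, the thinned share was 0.0126% and 0.0597%. In barcodes rich in leukocyte genes (median depths 1753 and 3289) it was 0 of 1212, which allows up to 0.248%, and 0.0398%. The Hb-rich share thus lay far above that of both other classes in each rat. Before thinning, the share was 0.742% and 1.55% in the epithelial and 0.165% and 0.239% in the leukocyte barcodes. Thinning takes more UMIs from deeper barcodes, and free RNA was not measured, so its part in these shares was not tested.

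Markers of other blood and stromal cells had few or 0 UMIs in the Hb-rich sums, and several were also low elsewhere. The platelet list of 8 genes held 1 UMI in rat 1, of Itga2b, and 2 in rat 2, of Pf4, the platelet factor 4 gene. That is 3.50 and 3.20 CPM. The list had 8.58 and 12.5 CPM in barcodes rich in epithelial genes and 3.51 and 3.80 CPM in those rich in leukocyte genes. The neutrophil list (S100a8, S100a9, Csf3r, Cxcr2 and Il1b) and the 6 endothelial genes present in the files held 0 UMIs in either rat. In barcodes rich in leukocyte genes they had 246 and 35.4 CPM (neutrophil) and 18.0 and 10.7 CPM (endothelial). In barcodes rich in epithelial genes they had 0.0430 to 0.431 CPM, less than 1 Hb-rich UMI could show. Fibroblast and muscle genes held 0 and 4 UMIs, or 0 and 6.39 CPM. They had 3.13 and 3.84 CPM in barcodes rich in epithelial genes and 0 and 2.43 CPM in those rich in leukocyte genes. Plasma cell genes held 4 and 3 UMIs, all of them Xbp1, while Jchain and Mzb1 were at 0. Epithelial and leukocyte genes were present and are taken up with the comparisons.

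The stretches upstream of Hba-a1, Hba-a2, Alas2, Klf1 and Rhd are shown because these genes cover the globin, heme, regulator and membrane members described next, and because GATA-type letters are known binding sites of the erythroid factor Gata1. They are the 250 bases before the annotated start in RefSeq's GRCr8 build, not the build of the count files, written 5′ to 3′ on the strand of the gene. Capitals mark AGATAA or TGATAA on either strand, so that TTATCT and TTATCA also count.
Hba-a1: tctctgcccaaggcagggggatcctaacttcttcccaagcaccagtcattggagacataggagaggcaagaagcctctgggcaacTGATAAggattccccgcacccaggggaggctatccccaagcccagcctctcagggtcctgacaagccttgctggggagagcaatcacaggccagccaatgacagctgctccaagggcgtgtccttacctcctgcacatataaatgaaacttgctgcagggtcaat
Hba-a2: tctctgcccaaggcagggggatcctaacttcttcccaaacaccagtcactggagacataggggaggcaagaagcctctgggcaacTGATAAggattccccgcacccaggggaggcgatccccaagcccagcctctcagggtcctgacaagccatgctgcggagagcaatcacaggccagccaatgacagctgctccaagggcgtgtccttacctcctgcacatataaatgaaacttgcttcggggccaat
Alas2: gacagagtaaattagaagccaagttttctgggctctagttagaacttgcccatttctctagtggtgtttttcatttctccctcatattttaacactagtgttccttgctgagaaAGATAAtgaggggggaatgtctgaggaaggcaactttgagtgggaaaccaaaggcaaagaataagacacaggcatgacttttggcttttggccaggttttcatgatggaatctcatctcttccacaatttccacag
Klf1: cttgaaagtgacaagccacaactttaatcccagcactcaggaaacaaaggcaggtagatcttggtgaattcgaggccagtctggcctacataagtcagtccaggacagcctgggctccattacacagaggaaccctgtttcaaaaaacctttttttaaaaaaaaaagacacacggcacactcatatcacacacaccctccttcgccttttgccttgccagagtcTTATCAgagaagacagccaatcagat
Rhd: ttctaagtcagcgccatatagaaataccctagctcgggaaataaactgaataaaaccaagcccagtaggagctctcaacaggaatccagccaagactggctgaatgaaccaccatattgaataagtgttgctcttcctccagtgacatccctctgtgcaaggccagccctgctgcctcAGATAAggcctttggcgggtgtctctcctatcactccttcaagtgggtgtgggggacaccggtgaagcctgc
The windows lie at chr10:15842581-15842830, minus strand (Hba-a1), chr10:15829139-15829388, minus strand (Hba-a2), chrX:22895200-22895449, plus strand (Alas2), chr19:40158652-40158901, minus strand (Klf1) and chr5:152370950-152371199, plus strand (Rhd). The Hba-a1 and Hba-a2 stretches differ at 9 of 250 bases, and both hold TGATAA beginning 165 bases before the start. Alas2 holds AGATAA at 136 bases, Rhd holds AGATAA at 72 bases, and Klf1 holds TGATAA on the other strand at 26 bases. Hbb, Hba-a3, Kel and Tmcc2 held none of these letters in the same window. They are not shown, so every stretch printed is from a gene with a match and the display is no fair sample of these roles. Either motif occurred in 16.9% of all 33469 upstream windows, in 9.57% of the 9071 windows of genes tested below, and in 9 of 27 windows (33.3%) of the genes in 5 erythroid lists that were higher in both comparisons, of which 26 of 38 symbols had an entry. A match describes letters in a window and not a bound site.

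The make-up of the hemoglobin UMIs is given as a description. Hba-a1 took 33.3% of the 5 genes' UMIs in Hb-rich barcodes of rat 1 and 33.7% in rat 2, and Hba-a2, its near-identical neighbour, took 13.9% and 12.7%. LOC103694857 took 46.1% and 39.5%, while Hbb, a beta-globin gene, took 6.15% and 13.6%. No globin chain was assigned to LOC103694857, so these shares give no ratio of alpha to beta chains. Reads of near-identical globin copies may be split by the counting, so the shares of single copies are less certain than their sum. A similar Hbb share appeared in the summed hemoglobin UMIs of other barcodes of the same rat. It was 6.79% in epithelial-gene-rich and 5.92% in leukocyte-gene-rich barcodes of rat 1, against 13.7% in both classes of rat 2. Those barcodes had a median of 1 hemoglobin UMI in either rat. The means were 10.1 and 21.6 UMIs in epithelial-gene-rich and 1.82 and 2.24 in leukocyte-gene-rich barcodes, so the epithelial sums draw largely on barcodes far above the median. The Hb-rich barcodes held 93.0% and 97.0% of all hemoglobin UMIs over 1000-UMI barcodes. The rats were also processed with different Cell Ranger versions, 3.1.0 and 5.0.1 by the file headers, so rat and version cannot be told apart.

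**Figure D2:**
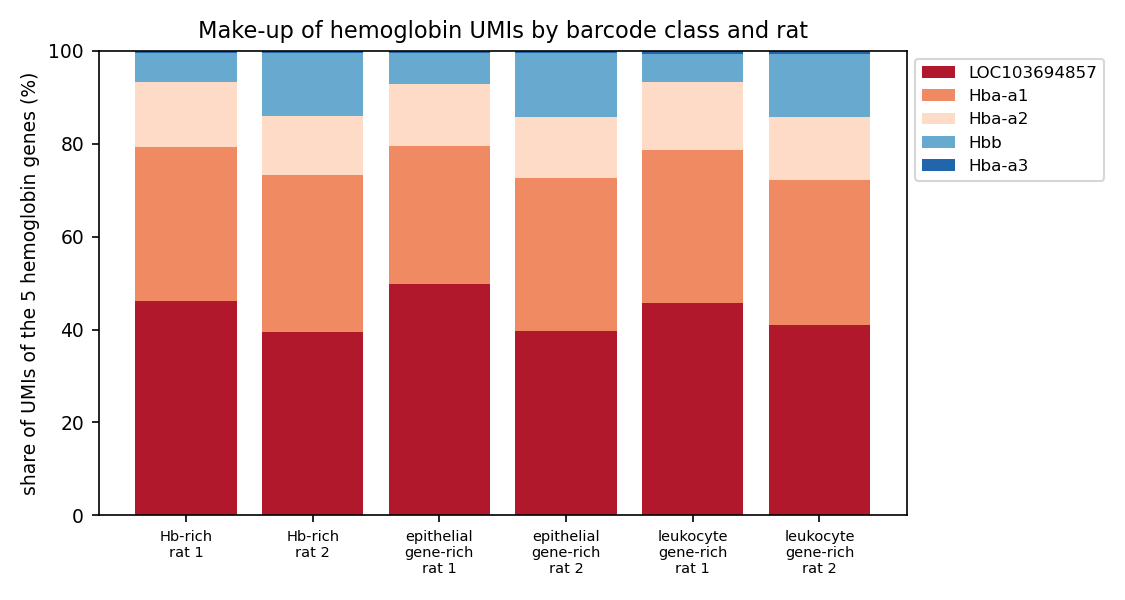
Make-up of the UMIs of the 5 hemoglobin genes (vertical axis, % of their sum) in Hb-rich, epithelial-gene-rich and leukocyte-gene-rich barcodes, 1 bar per class and rat. Hbb takes 5.92% to 6.79% in the 3 bars of rat 1 and 13.6% to 13.7% in the 3 bars of rat 2.

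Hemoglobin genes outside the rule were scarce. Hbe1, an embryonic globin, had 1 UMI in rat 1 and 11 in rat 2. Hbz had 0 and 1, and Hbg1 had 0 and 4. Hbq1a, a theta-like globin, had 18 and 24 UMIs, and LOC689064 had 454 and 378. LOC689064 was therefore the most counted of the 8 further hemoglobin genes, all of which were left out of the totals.

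To ask which other genes set these barcodes apart, UMIs were summed per rat in 3 classes and compared with the edgeR quasi-likelihood test. Epithelial-gene-rich barcodes (7953 and 3349) had under 20% hemoglobin, at least 5 UMIs of Epcam, Krt8, Krt18, Krt19 and Krt20, and more of these than of 8 leukocyte genes. Leukocyte-gene-rich barcodes (1212 and 2512) had the reverse, counting Ptprc, Coro1a, Laptm5, Rac2, Cd52, Cd3d, Cd3e and Cd3g. Genes that define a class are not results of these contrasts. Against the epithelial class, 245 of 11052 genes tested were higher in Hb-rich barcodes (2.22%) and 0 were lower (0.0%), with 210 lower at an unadjusted p under 0.05 and 2 lower by DESeq2. Against the leukocyte class 853 were higher (7.72%) and 35 lower (0.317%). With the rat as a term in edgeR, these counts were 615 and 34, and 1759 and 569. Leaving out the Hb-rich sum of rat 1 left 122 and 130 higher, and leaving out that of rat 2 left 51 and 54, with 0 lower in each case, the lone sum being assumed to vary like the other classes. Both comparisons share the Hb-rich sums, and 140 genes were higher in both, which is 57.1% of the first set and 16.4% of the second. Each of the 140 was higher in 2 of 2 rats in both comparisons, but the same 2 rats gave the calls, so this is no separate support. With the threshold at 80% hemoglobin, 139 of the 140 were tested and 139 were higher in both.

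Genes of the 5 erythroid lists were among those higher. Of 81 genes listed for heme synthesis, membrane, cytosol, clearance and regulation, 77 had a UMI in Hb-rich barcodes and 71 passed the filter on low counts. Against the epithelial class 40 of the 71 were higher, against the leukocyte class 50 were higher, and 0 were lower in either. The median log2 fold change over the 71 was 4.37 and 3.95, against -0.15 and -0.12 over all genes tested. A gene near 0 in the other classes passes the filter through the Hb-rich sums, so these counts describe the lists and are no independent support. With the Hb-rich sum of rat 1 left out the counts were 27 and 32, and with that of rat 2 left out they were 21 and 20. With the threshold at 80% they were 43 and 55.

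**Figure D3:**
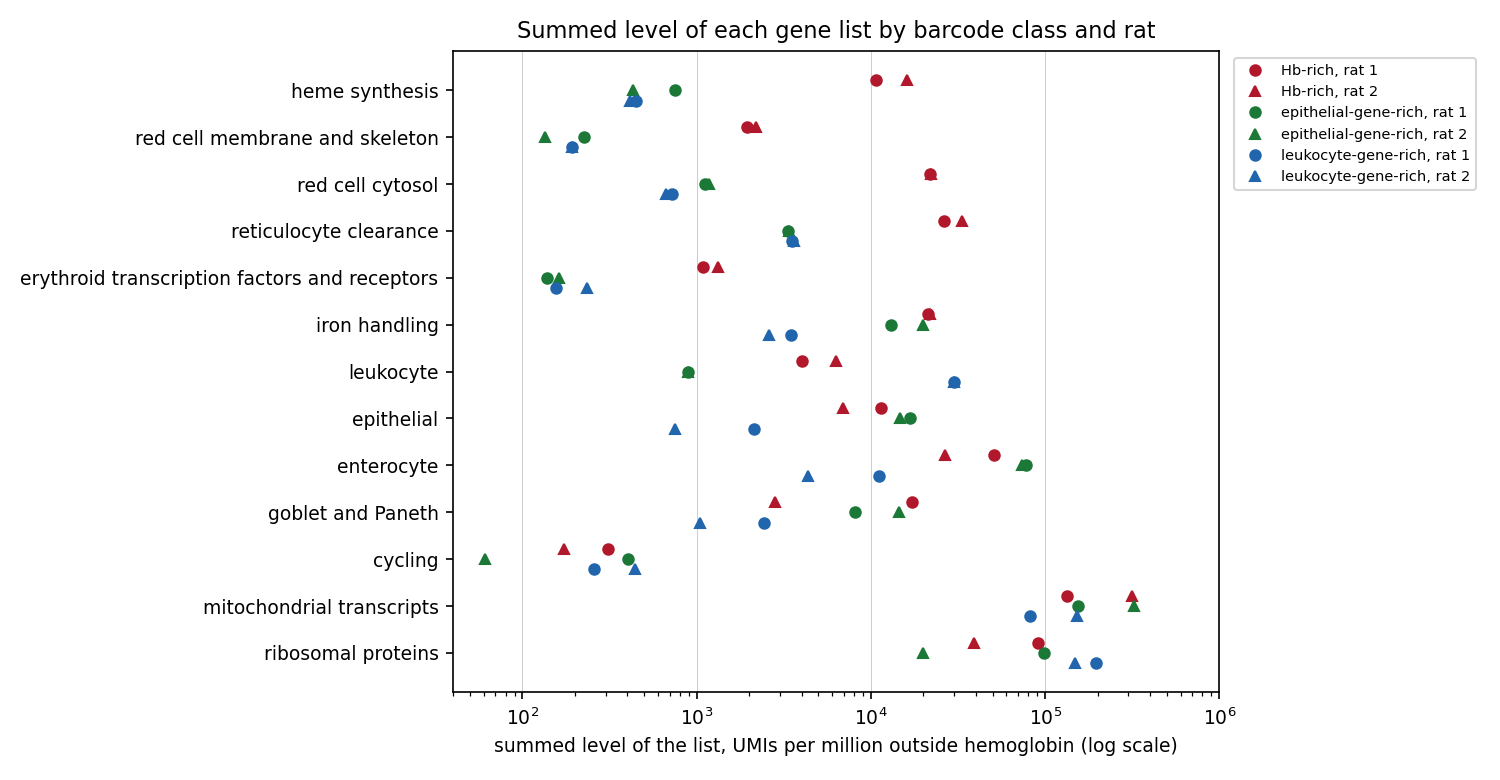
Summed level of each gene list (horizontal axis, UMIs per 1000000 outside hemoglobin, log scale) in Hb-rich (red), epithelial-gene-rich (green) and leukocyte-gene-rich (blue) barcodes, with circles for rat 1 and triangles for rat 2. The 5 erythroid lists lie highest in Hb-rich barcodes of both rats, as does the iron list by a small margin over the epithelial class, while the leukocyte, epithelial and enterocyte sums, which include class-defining genes where a list holds them, lie between those of the other classes.

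Of the 10 largest increases, ranked by the smaller of the 2 log2 fold changes, 9 are described here: Slc38a5, LOC108348091, Alas2, Ctrb1, Add2, Ahsp, Kel, Tmcc2 and Alox15. Several were at or near 0 elsewhere, and their order depends on how 0 is treated, so bounds are given for them. Slc38a5, an amino acid transporter, had 56.0 and 70.3 CPM and was at least 258-fold higher than in leukocyte-gene-rich barcodes, where it had 0 UMIs, against a floor of 3 counts over the group. LOC108348091 had 25 UMIs in Hb-rich barcodes and 0 in the other classes, at least 1296-fold and 107-fold higher. Ctrb1, chymotrypsinogen B, known as a pancreatic digestive enzyme, had 108 and 97.5 CPM, 0.0322 and 0.0205 CPM in the epithelial class and 0 UMIs in the leukocyte class, where it was at least 395-fold higher. Tmcc2, which encodes a membrane protein with coiled coils, had 2277 and 4259.6 CPM against 0.423 to 1.91 CPM in the other 4 sums. For these genes the Hb-rich values of both rats lay above every value of the other classes. That was largely fixed by picking genes called higher in both comparisons and higher in each rat. Genes near 0 elsewhere also passed the filter on low counts through the Hb-rich sums, so this is no independent support.

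In heme synthesis, genes of the first and last enzymes were higher in Hb-rich barcodes in both comparisons. Alas2, the first and rate-limiting enzyme in erythroid cells, had 7567 (rat 1) and 12411 CPM (rat 2), against 1.54 and 3.14 CPM in the epithelial class and 0.878 and 0.951 CPM in the leukocyte class. Its log2 fold change was 12.17 ± 1.23 (SE implied by edgeR's F statistic, n = 2 rats per class, edgeR adjusted p = 0.00186) and 14.30 ± 1.35 (edgeR adjusted p = 0.00151). Fech, ferrochelatase, which inserts iron in the last step, had 752 and 1259 CPM in Hb-rich barcodes and 4.86 to 17.0 CPM elsewhere. Slc25a37, mitoferrin, which carries iron into mitochondria, had 84.0 and 165 CPM against 0.575 to 6.45 CPM. Both were higher in both comparisons, as were Glrx5, which serves iron-sulfur cluster assembly, and Urod, uroporphyrinogen decarboxylase. Of the 13 genes of this list, all tested, 5 were higher than in the epithelial class and 8 higher than in the leukocyte class, with medians of 2.21 and 3.21 on the log2 scale. Cpox, Uros and Tmem14c, which also serve the pathway, passed in neither comparison, while Abcb10 and Ppox passed against the leukocyte class with the rat as a term (edgeR adjusted p = 0.0389 and 0.0136) but not without it.

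Membrane and skeleton genes were sparse in UMIs but nearly absent elsewhere. Rhd, the Rh blood group protein, had 500.3 and 708 CPM in Hb-rich barcodes against 0.354 and 0.575 CPM in the epithelial class. Slc4a1, band 3, the chloride-bicarbonate exchanger of red cells, had 539 and 383 CPM against 0.301 and 0.493 CPM. Kel, the Kell blood group protein, had 157 and 201 CPM, and Add2, beta-adducin of the spectrin skeleton, had 105 and 133 CPM, and each had 0 UMIs in the leukocyte class. Against that class, Kel was at least 734-fold higher, Add2 at least 485-fold higher and Epb42, protein 4.2, at least 378-fold higher. Of 20 genes listed, 19 had an Hb-rich UMI and 15 were tested, of which 10 and 11 were higher. Their median log2 fold changes were 7.19 and 9.55, the second becoming 6.20 when genes at 0 stood at their bound. Gypc, glycophorin C, had 38.5 and 35.2 CPM, was higher than in the epithelial class, and had 27.7 and 28.8 CPM in the leukocyte class, where it did not pass. Ank1, ankyrin, had 2 UMIs in rat 1 and 6 in rat 2 and did not pass the filter on low counts.

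**Figure D4:**
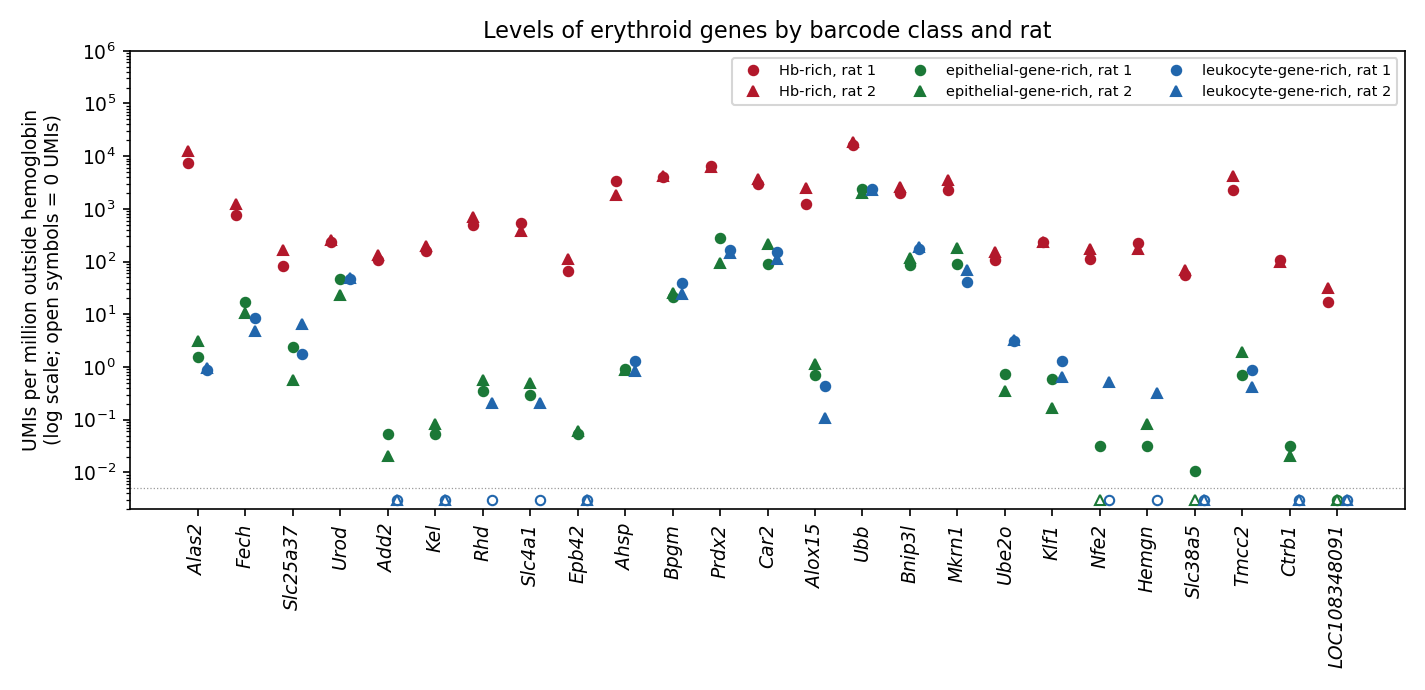
Levels of 25 genes (vertical axis, UMIs per 1000000 outside hemoglobin, log scale) by class and rat, with open symbols below the dotted line for 0 UMIs. In each gene shown the red Hb-rich symbols of both rats stand above the green epithelial and blue leukocyte symbols, Klf1 at 238 and 235 CPM and Ubb at 15969.6 and 18678 CPM among them. The genes were picked by hand from the erythroid lists and the largest increases, so this order holds for the picked genes only. Pklr, which lay below the epithelial class, and Gata1 and Tal1, at 0 UMIs, are not shown.

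Cytosolic genes of gas transport and defence against oxidation numbered 9 of 13 higher than in the epithelial class and 13 of 13 higher than in the leukocyte class. Ahsp, the chaperone of free alpha-globin, had 3376 (rat 1) and 1853 CPM (rat 2), and 0.845 to 1.32 CPM in the other sums. Bpgm, which makes the 2,3-bisphosphoglycerate that lowers oxygen affinity, had 4013 and 4215 CPM against 20.9 to 39.1 CPM. Prdx2, a peroxide-removing peroxiredoxin of red cells, had 6496 and 6333 CPM against 95.7 to 285 CPM. The 2 rats thus differed little for Bpgm and Prdx2 and more for Ahsp. Car2, a carbonic anhydrase, had 2907 and 3748 CPM, and its log2 fold change was 4.51 ± 0.83 against the epithelial class (SE, n = 2, edgeR adjusted p = 0.0291) and 5.54 ± 0.87 against the leukocyte class (edgeR adjusted p = 0.0123). Gpx1, glutathione peroxidase, Hagh, a glyoxalase, and Blvrb, a biliverdin reductase, were also higher in both. Pklr, the pyruvate kinase of red cells and liver, had 238 and 121 CPM, below the 361 and 425 CPM of the epithelial class, a difference that did not pass the test (log2 fold change -1.05 ± 0.55, edgeR adjusted p = 0.61).

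Genes of reticulocyte clearance were higher in 11 of 18 cases against the epithelial class and 12 of 18 against the leukocyte class. Alox15, the 15-lipoxygenase that attacks organelle membranes, had 1242 and 2489 CPM in Hb-rich barcodes against 0.106 to 1.13 CPM in the other 4 sums. Bnip3l, the mitophagy receptor also called Nix, had 1991 and 2651 CPM against 87.7 to 189 CPM. Ube2o, a ubiquitin-conjugating enzyme that acts on ribosomal proteins in reticulocytes, had 105 and 150.2 CPM against 0.349 to 3.28 CPM. Mkrn1, a ubiquitin ligase, Gabarapl2, an autophagosome protein, and Xpo7, an exportin, were higher in both comparisons as well. Ubb, polyubiquitin B, had 15969.6 and 18678 CPM against 1983 to 2435 CPM. It passed against the leukocyte class (log2 fold change 3.74 ± 0.84, edgeR adjusted p = 0.0309) but not the epithelial class (3.16 ± 0.82, edgeR adjusted p = 0.109), where it passed with the rat as a term (3.15, edgeR adjusted p = 0.00286).

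Transcription factors of the lineage were in part detected and in part at 0. Klf1, which activates beta-globin, had 68 UMIs in rat 1 and 147 in rat 2, or 238 and 235 CPM, against 0.164 to 1.32 CPM elsewhere. Its log2 fold change was 9.48 ± 0.77 (SE, n = 2, edgeR adjusted p = 0.000576) against the epithelial class, and it also passed against the leukocyte class (edgeR adjusted p = 0.00134). Nfe2, a globin regulator, had 112 and 173 CPM, and Hemgn, hemogen, had 224 and 176 CPM, with 0 to 0.528 CPM in the other sums. Tfdp2 and E2f2, partners in cell cycle control of erythroblasts, had 273 and 396 CPM and 108 and 174 CPM, and like Klf1, Nfe2 and Hemgn were higher in both comparisons. Gata1 and Tal1 had 0 UMIs in every class and rat, so their level in Hb-rich barcodes could not be set against any other class. Receptors of early erythroid cells were at the limit of detection, with 6 and 1 UMIs of Tfrc, the transferrin receptor, 3 and 9 of Kit and 0 and 2 of Epor, the erythropoietin receptor. Of 15 listed genes 12 were tested, and 5 and 6 were higher, or 8 and 8 with the rat as a term, when Kit was lower than in the leukocyte class.

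Of 11 iron handling genes tested 0 passed against the epithelial class by edgeR (2 higher at an unadjusted p under 0.05, and 2 by DESeq2), and 3 (Ftl1, Ncoa4 and Heph) were higher than in the leukocyte class. With the rat as a term in edgeR, these counts were 2 and 6, and without the Hb-rich sum of rat 1 or rat 2 the count against the leukocyte class was 1 or 0. Ftl1, ferritin light chain, had 4999 and 4971 CPM in Hb-rich barcodes, 789 and 683 CPM in the epithelial class, and 394 and 299.5 CPM in the leukocyte class. Ncoa4, which delivers ferritin for breakdown, had 602 and 692 CPM against 35.6 to 123 CPM. Their log2 fold changes against the epithelial class, 2.92 ± 0.67 (edgeR adjusted p = 0.0663) and 2.97 ± 0.67 (edgeR adjusted p = 0.0634), missed the threshold, and with the rat as a term both passed, at 2.92 (edgeR adjusted p = 0.000569) and 3.12 (edgeR adjusted p = 5.63e-06). They were also the 2 genes called in this comparison with the hemoglobin threshold at 40%, while 1 gene was called at 80%. Fth1, ferritin heavy chain, had 15518 and 15954 CPM, within the 11999 to 18637 CPM of the epithelial class, and passed against the leukocyte class with the rat as a term (3.41, edgeR adjusted p = 0.00136) but not without it. The difference between passing in one comparison and missing in the other was not tested.

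Erythroid levels varied within the Hb-rich barcodes along their hemoglobin share, in a way that depends on the scale. In rat 1 the summed level of the 5 erythroid lists was 13077 CPM in the 15 barcodes of 20% to 40% hemoglobin, 14950 CPM in 14 barcodes of 40% to 60%, 44667 CPM in 71 of 60% to 80%, 105854 CPM in 269 of 80% to 90% and 114865 CPM in 64 of 90% and over. In rat 2 it was 11182 CPM in 35 barcodes, 18335 CPM in 30, 45618 CPM in 87, 127257 CPM in 269 and 158083 CPM in 225. As a share of UMIs outside hemoglobin the level was thus higher in each higher bin of both rats, but the total it is divided by shrank from a median of 4611 to 374.5 UMIs per barcode (rat 1) and of 3604 to 506 (rat 2). Per barcode the lists had means of 74.7, 31.8, 21.6, 44.1 and 43.1 UMIs from the lowest to the highest bin of rat 1, and 59.0, 49.1, 38.5, 80.3 and 82.7 UMIs in rat 2. The order along the bins therefore does not hold per barcode, where the lowest bin of rat 1, with under 20 barcodes like the next, had the largest mean, and the bin of 60% to 80% had the smallest in both rats. On the CPM scale Alas2 went from 841 to 19262 CPM in rat 1 and from 1262 to 30169.7 CPM in rat 2. Mitochondrial transcripts took 19.0% and 39.3% of UMIs outside hemoglobin in the lowest bin, and 4.87% and 19.5% in the highest, with 24.9% (rat 1) and 40.4% (rat 2) as the largest values in between. Bins hold barcodes of the same libraries and were not tested.

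**Figure D5:**
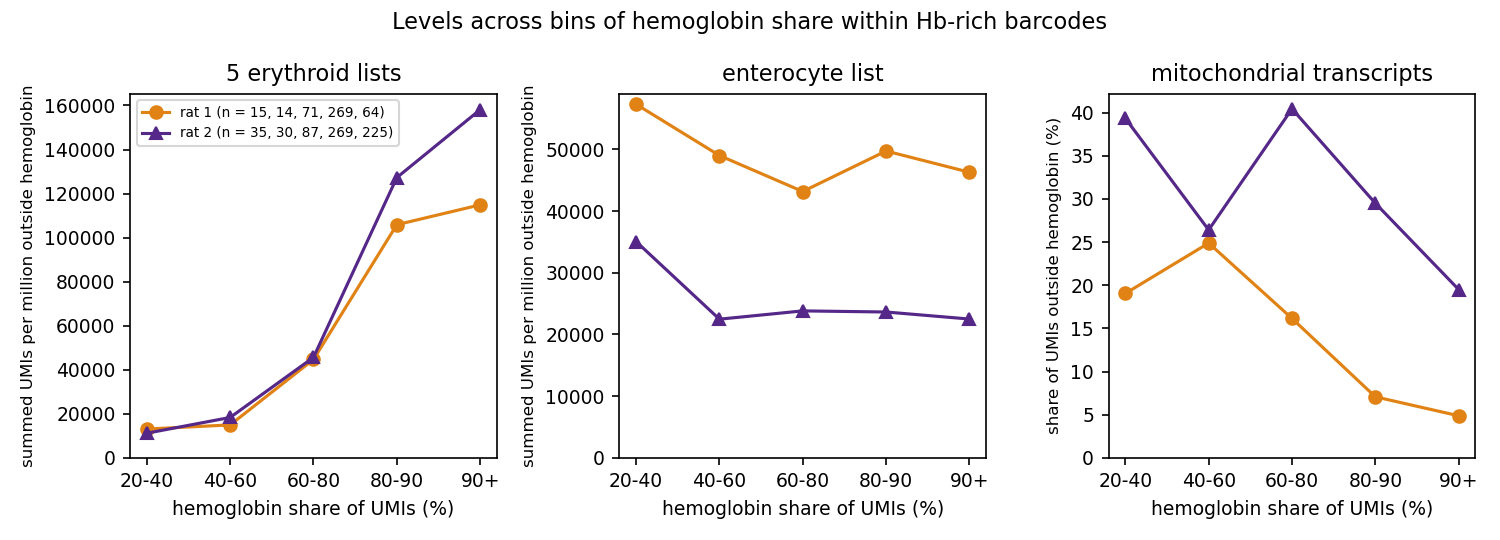
Summed level of the 5 erythroid lists and of the enterocyte list (UMIs per 1000000 outside hemoglobin) and share of mitochondrial transcripts (% of UMIs outside hemoglobin) by bin of hemoglobin share, with circles for rat 1, triangles for rat 2 and the number of barcodes per bin in the legend. The erythroid sum goes from 13077 to 114865 CPM in rat 1 and from 11182 to 158083 CPM in rat 2, and the enterocyte sum lies between 43180.4 and 57328 CPM in rat 1 and between 22480.3 and 35066 CPM in rat 2, both divided by a total that shrinks along the bins: per barcode the enterocyte genes fall from a mean of 327 to 17.4 UMIs (rat 1) and of 185 to 11.8 (rat 2).

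Barcodes with much RNA outside hemoglobin were few but weighed heavily in the sums. In rat 1, 34 barcodes had over 1000 such UMIs and held 44.0% of the Hb-rich UMIs outside hemoglobin, and in rat 2 there were 109 with 53.9%. Their median hemoglobin share was 41.7% and 57.3%. With them left out, 137 of the 140 genes higher in both comparisons were still higher in both, of 138 tested. No doublet caller was run, and the part of barcodes holding more than 1 cell was not tested.

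Intestinal transcripts were present in the Hb-rich barcodes, at the amount of leukocyte-gene-rich barcodes in those of at least 80% hemoglobin and above it in those of 20% to 60%. The 11 enterocyte genes had a median of 19 UMIs per barcode in rat 1 among Hb-rich barcodes of at least 80% hemoglobin and 19 among leukocyte-gene-rich barcodes, against 279 in the epithelial class. In rat 2 the medians were 12, 13 and 472. Over all Hb-rich barcodes the mean was 33.6 UMIs in rat 1 and 25.8 in rat 2, against 20.9 and 16.5 in the leukocyte class, with 219.6 and 127 in the barcodes of 20% to 60% hemoglobin. Fabp1, the fatty acid binding protein of enterocytes, had medians of 7 and 7 UMIs in rat 1 and 2 and 2 in rat 2 for the same pair of classes. On the CPM scale, which divides by the smaller total of the Hb-rich barcodes, the list summed to 50865 and 26671 CPM against 11111 and 4373 CPM in the leukocyte class and 77904 and 73672 CPM in the epithelial class. By that scale 5 of 11 enterocyte genes and 6 of the 6 tested non-defining epithelial genes were higher than in the leukocyte class, and 0 of either list passed against the epithelial class by edgeR (DESeq2 0). With the rat as a term in edgeR, 11 of the 11 enterocyte genes were higher than in the leukocyte class, and with the Hb-rich sum of either rat left out 0 of either list were. Lct, lactase, one of the 5, had 388 and 385 CPM against 80.4 and 73.4 CPM. The part of total depth in these calls was not tested further.

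Leukocyte genes lay between the classes. Of 10 tested genes outside the defining set, 5 (Ccl5, Cd8a, Fcer1g, Gzma and Tyrobp) were higher than in the epithelial class and 0 passed against the leukocyte class by edgeR, where 6 were lower at an unadjusted p under 0.05 and 5 by DESeq2. With the rat as a term in edgeR, 8 were higher than in the epithelial class and 7 lower than in the leukocyte class. Ccl5, a T cell chemokine, had 1168 and 1649 CPM against 85.5 and 135 CPM in the epithelial class and 12172 and 10679.5 CPM in the leukocyte class. Gzma, granzyme A of cytotoxic lymphocytes, had 724 and 1369 CPM against 58.8 and 96.4 CPM. These calls changed with the hemoglobin threshold, in no single direction. At 10%, 0 of the 10 were higher than in the epithelial class and 4 were lower than in the leukocyte class. At 40% these counts were 6 and 0. With the threshold at 80%, 0 of the 10 were higher than in the epithelial class and 6 were lower than in the leukocyte class. The same counts, 0 and 6, came from Hb-rich barcodes of at most 1000 UMIs outside hemoglobin, and with the Hb-rich sum of either rat left out 0 were higher. At least 5 UMIs of the 8 defining leukocyte genes were present in 10 Hb-rich barcodes of rat 1 and 57 of rat 2, or in 6 and 30 with Cd52 left out.

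Cd52, a defining gene of the leukocyte class, went against its list and is given as a level. It encodes a small surface glycoprotein of lymphocytes and had 1077 (rat 1) and 1184 CPM (rat 2) in Hb-rich barcodes. In leukocyte-gene-rich barcodes it had 1.32 and 1.37 CPM, and in epithelial-gene-rich barcodes 0.698 and 0.800 CPM. Ptprc, the leukocyte common antigen CD45, had 56.0 and 150 CPM in Hb-rich barcodes against 634 and 819 CPM in the leukocyte class.

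Of 9 cycling genes 0 passed in either comparison by edgeR (0 by DESeq2, and 1 higher than in the leukocyte class at an unadjusted p under 0.05), and Mki67, a marker of dividing cells, had 25 and 41 UMIs, or 87.5 and 65.5 CPM. Of 8 immediate early and heat shock genes and 13 mitochondrial transcripts 0 passed by edgeR, 1 of each was higher than in the leukocyte class by DESeq2, and 2 and 4 were higher there at an unadjusted p under 0.05, with 1 immediate early or heat shock gene lower than in the epithelial class. With the rat as a term in edgeR, 1 cycling gene (Tyms), 3 immediate early or heat shock genes and 5 mitochondrial transcripts were higher than in the leukocyte class. Over all 11052 genes tested, 1930 were higher than in that class at an unadjusted p under 0.05. By DESeq2 1344 were higher there, and 1759 with the rat as a term, so these list counts are given as a description. Of 84 genes with ribosomal protein names 0 passed by edgeR or DESeq2, with 1 higher in each comparison at an unadjusted p under 0.05 and 1 higher than in the epithelial class with the rat as a term, Rps6ka2, a kinase that the name pattern included. Ribosomal protein genes summed to 91109 (rat 1) and 39022 CPM (rat 2), against 97978 and 19895 CPM in the epithelial class and 196598 and 149405 CPM in the leukocyte class. Their median log2 fold changes were 0.32 and -0.66. Counting only symbols that start with Mt-, the median mitochondrial share of UMIs outside hemoglobin per Hb-rich barcode was 5.84% in rat 1 and 27.0% in rat 2. It was higher in rat 2 in the other classes too (13.9% and 29.5% in the epithelial class, 6.91% and 12.1% in the leukocyte class).

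Goblet and Paneth genes differed in level between the rats. Their sum was 17194 CPM in rat 1 and 2806 CPM in rat 2, against 8122 and 14421 CPM in the epithelial class and 2433 and 1051 CPM in the leukocyte class. In rat 1, 3060 of these UMIs lay in the 15 barcodes of 20% to 40% hemoglobin, where the mean was 204 UMIs per barcode and the median 5, and the next bin held 67 UMIs in 14 barcodes. Zg16, a lectin-like protein of goblet cells, had 7637 CPM in rat 1 and 1171 in rat 2. Of 8 genes tested 0 passed in either comparison by edgeR, with 4 higher than in the leukocyte class at an unadjusted p under 0.05 and 4 by DESeq2. With the rat as a term, 7, Zg16 among them, were higher than in the leukocyte class, and Itln1, an intelectin, was lower than in the epithelial class.

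Of the 35 genes lower than in the leukocyte class, Cd3d, Cd3e and Cd3g define that class and are no result. The 5 largest decreases were Tnfrsf9, AABR07017825.5, Xcl1, LOC308990 and Arhgef6. Tnfrsf9, the T cell costimulatory receptor 4-1BB, had 0 UMIs in Hb-rich barcodes and 54.0 and 49.1 CPM in leukocyte-gene-rich barcodes, at least 15.2-fold lower. AABR07017825.5 also had 0 UMIs and was at least 7.56-fold lower. Xcl1, a lymphocyte chemokine, had 10.5 and 7.99 CPM against 339.9 and 375 CPM, a log2 fold change of -4.43 ± 0.82 (SE, n = 2, edgeR adjusted p = 0.0195). LOC308990 and Arhgef6, a guanine nucleotide exchange factor, had 1 UMI each over both rats, 34.7-fold (exact interval 6.20 to 1374.0) and 27.9-fold (4.97 to 1104.1) lower. These calls did not hold with either Hb-rich sum left out, where 0 genes were lower.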

How the data were processed

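Barcodes of 2 droplet libraries, 1 per rat, were analysed from the raw UMI counts that the authors deposited after Cell Ranger alignment to rn6 (Rnor6), filtered to 20285 cell-called barcodes. By the file headers, rat 1 was run through version 3.1.0 and rat 2 through 5.0.1, while the methods name 1 version. The 32883 gene rows were summed by symbol to 28914, and 13 hemoglobin symbols were left out of totals. Mitochondrial transcripts were the symbols that start with Mt-. Rows named by accession, such as AY172581.24 (32341 and 64501 CPM in Hb-rich barcodes), were not counted among them, so mitochondrial shares may be too low. Counts were summed per rat and class and tested with edgeR 4.0.16 (R 4.3.3; glmQLFit, TMM, filterByExpr, Benjamini-Hochberg adjustment, threshold 0.05) over all 3 classes without a rat term. DESeq2 1.42.0 was an alternative. Same-numbered sums come from the same rat, and their deviations correlated at 0.358 (Hb-rich and epithelial), 0.303 (Hb-rich and leukocyte) and 0.372 (epithelial and leukocyte) over 11052 genes, so the rat was also fitted as a block. A gene's p-value thus rests on the spread between 2 animals. Each SE was worked back from the test, as the absolute log2 fold change over the square root of edgeR's F statistic. It is therefore approximate, restates the p-value and is not a spread of the 2 rats' values.

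Classes were rebuilt from counts with no clustering, and no doublet caller was run. Shares of barcodes with a UMI were compared after thinning to 100 UMIs, with exact binomial intervals, and intervals and floors (3 counts) cover counting error only. Named genes were the 10 largest increases in both comparisons, the 5 largest decreases and members of role lists, and some members are not reported here. The members and lists were chosen with earlier results of these data known, and Cd52, Lgals5 and Ybx3 with the other genes of the closing part were named after their values were seen. Upstream sequences came from RefSeq (GRCr8). On data simulated from these sums, 200 genes carried a known log2 change of 3, and edgeR recovered 73 of 187 tested against the epithelial class with 6.41% false calls, and 67 of 187 against the leukocyte class with 18.3% false, so smaller changes were mostly beyond its reach: 3 and 1 of 188 at a log2 change of 2, and 0 of 183 at 1. Python 3.11.15, numpy 2.4.6, pandas 2.3.3, scipy 1.17.1 and matplotlib 3.10.9 were used. Alternatives were other hemoglobin, depth and mitochondrial thresholds, other scaling, no filter, Hb-rich barcodes without epithelial UMIs and each rat left out. Thresholds at 80% hemoglobin and at 1000 UMIs outside hemoglobin were chosen after seeing the data.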

Additional observations from a re-analysis of the deposited data

Results flagged for a closer look

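Barcodes of at most 1000 UMIs were outside the rule, and some of them were rich in hemoglobin. In rat 1, 69 of 1230 such barcodes (5.61%) had at least 20% hemoglobin, with a median of 63.6%, and in rat 2 there were 50 of 974 (5.13%), with a median of 54.0%. Their median depth was 781 and 778.5 UMIs, of which 279 and 368.5 lay outside hemoglobin. They were listed because they carry the same signal in barcodes that no comparison used, and there is no control sample without blood to set them against.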

How the results depend on the processing

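Against the epithelial class, the 245 higher genes became 126 with a hemoglobin threshold of 10%, 602 by DESeq2, 584 with no filter, 615 with the replicate block (the rat as a term), and 51 to 122 with a rat's Hb-rich sum left out. The 0 lower genes became 1 (10%), 2 (40%), 1 (over 5000 UMIs), 1 (at most 40% mitochondrial), 11 (no epithelial UMI), 1 (80%), 1 (at most 1000 UMIs outside hemoglobin), 2 (DESeq2), 10 (no filter) and 34 (block), and 0 with a rat left out. Against the leukocyte class, the 853 higher genes became 1396 (10%), 324 (over 5000 UMIs), 136 (no epithelial UMI), 1344 (DESeq2), 1592 (no filter), 1759 (block) and 54 to 130 with a rat left out. The 35 lower became 253 (10%), 23 (over 5000 UMIs), 56 (mitochondrial), 0 (no epithelial UMI), 137 (80%), 200 (at most 1000 UMIs outside hemoglobin), 257 (DESeq2), 259 (no filter), 569 (block) and 0 to 0 with a rat left out. The causes were not tested. The block kept all 47 and 54 calls of named genes and added others. The Hb-rich barcodes numbered 386 over 5000 UMIs, and 433 to 646 with a rat left out. Fth1 changed sign against the epithelial class, without passing in any of these, at -0.21 (over 5000 UMIs), -0.0716 (no epithelial UMI) and -0.0480 (without the Hb-rich sum of rat 2), against 0.22 without that of rat 1. Of the named genes called, 28 of 47 (epithelial) and 27 of 54 (leukocyte) were called the same way in every setting, and 38 and 42 in every setting that kept both rats. A setting in which a gene was not tested was left out of these counts for that gene. RLE scaling moved the median of all genes from -0.12 to -0.28 against the leukocyte class, and leaving out barcodes with an epithelial UMI moved the medians to -1.16 and -0.88. Depth limits these results: 1 UMI in the Hb-rich sums is 3.50 or 1.60 CPM, so genes below a few CPM were not detectable in Hb-rich barcodes.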

Other observations

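Other genes outside the lists were higher in Hb-rich barcodes in both comparisons, and are given as values because they were named after these were seen. Ybx3, a cold shock domain protein that binds RNA, had 9932 (rat 1) and 14536 CPM (rat 2), against 33.4 to 115 CPM in the other 4 sums. After thinning to 100 UMIs, 69.7% and 74.6% of Hb-rich barcodes held a Ybx3 UMI, against 0.993% and 0.567% of epithelial-gene-rich barcodes. Lgals5, a galectin known from rat reticulocytes, had 4152 and 4531 CPM against 0.951 to 4.36 CPM, with log2 fold changes of 10.21 (edgeR adjusted p = 0.000733) and 12.65 (edgeR adjusted p = 0.000907).

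Isca1, an iron-sulfur cluster assembly factor, had 2949 and 3938 CPM, and Slc25a39, a mitochondrial carrier, had 3040.0 and 4148 CPM. Glul, glutamine synthetase, had 2064 and 3061 CPM, with log2 fold changes of 7.80 (edgeR adjusted p = 0.00251) and 6.85 (edgeR adjusted p = 0.00436). Tent5c, a poly(A) polymerase, had 465 and 623 CPM, and Rbm38, an RNA-binding protein, had 1214 and 1088 CPM. Rsad2, the interferon-induced protein viperin, had 469 and 455 CPM against 6.12 and 31.9 CPM in the epithelial class and 3.07 and 3.17 CPM in the leukocyte class. The Hb-rich values of both rats lay above those of the other classes for each of these genes, which were picked from those higher in both comparisons, so this order was largely fixed.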
